A study of Mus musculus with 33 samples.

Results

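Spleen cells of BALB/c mice were kept in culture medium without any stimulus, and RNA taken after 8 h was compared with RNA taken after 4 h. These are the 7 arrays whose titles name medium alone at 4 h (4 arrays) or 8 h (3 arrays), of 33 arrays in a study of CpG oligodeoxynucleotides (ODN). The mice were female and 2 months old, and single-cell suspensions of spleen were held at 37 C and 5% CO2 in RPMI 1640 with 10% fetal bovine serum. No ODN was added to either group, so culture and handling are all that they received. The study included medium alone to account for what culture itself does to gene expression. For comparison, 7 arrays each of cells given 1 uM control ODN, which lacks CpG motifs, or 1 uM CpG ODN cover the same 4 h and 8 h. Total RNA of the cells was labelled with Cy5 and hybridised with a Cy3-labelled common standard, Universal Mouse Reference RNA, which mixes RNA of several mouse tissues and cell types. Dyes were not swapped. A level is the log2 ratio of spleen cell RNA to this reference with the array median set to 0, and a log2 difference of 1 is a 2-fold change. The replicates are described as independent experiments, but the labels do not say whether the 4 h and 8 h cultures came from the same suspensions.

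Mouse spleen holds mainly B and T lymphocytes, with macrophages, dendritic cells, neutrophils and, since the mouse spleen makes blood cells, erythroid and myeloid precursors. Lymphocytes that meet no antigen or mitogen rarely divide in culture, and neutrophils are short-lived there. Isolation of cells is known to switch on immediate early transcription factors for a short time, and many glycolytic genes respond to low oxygen through hypoxia-inducible factor.

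The suspensions carried the RNA of spleen cells on all 7 arrays. The mean level of 16 B cell markers lay between 1.94 and 2.63 and that of 12 T cell markers between 1.65 and 2.48, against -0.69 to -0.47 for 13 markers of other tissues in the reference. Between 10556 and 11127 probes had a value per array, and the number of arrays limits the precision. The 8 h arrays did not form a close group. Over probes, 8 h replicate 1 had r = 0.930 with 4 h replicate 2. Its correlations with 8 h replicates 2 and 3 were lower, at 0.753 and 0.868. Replicate 3 at 8 h was also closer to 4 h replicate 1 (r = 0.899) than to 8 h replicate 2 (r = 0.873). Of the 8 h arrays, replicate 2 had the lowest correlations with the 4 h arrays, 0.725 to 0.826. One 4 h array, replicate 1, carries a database number from an earlier block than the other 6. Among those 6, every 4 h number follows every 8 h number. The same order holds in control ODN and in CpG ODN. Apart from that 1 array, time and the order of the numbers cannot be told apart. What the order records was not given.

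From 4 h to 8 h, 70 of 9577 genes changed at an adjusted p below 0.05 in limma, which is 0.731% of those tested. Of these, 37 were higher at 8 h (0.386%) and 33 were lower (0.345%), and 52 differed by at least 1 on the log2 scale. At an unadjusted p below 0.05 in the same limma fit there were 1324 genes (13.8%), 681 higher and 643 lower. A share of about 0.05 would pass this threshold with no change at all, so the 1324 are not all changed genes. Of 7741 genes measured on all 7 arrays, 691 (8.93%) had 3 values at 8 h that did not overlap the 4 values at 4 h, 400 above and 291 below. With no change, 3 and 4 values separate with a probability of 0.0571 (exact two-sided permutation over 35 arrangements). Among the 61 called genes with all 7 values, 58 did not overlap. They were called from these same values, so the lack of overlap, here and for single genes below, describes them and adds no support. The number of calls depended on which arrays were used. Leaving out 8 h replicate 1 gave 563 calls, whereas leaving out 8 h replicate 2 gave 7 and leaving out 8 h replicate 3 gave 2. Without 4 h replicate 1, 2, 3 or 4 there were 72, 40, 3 and 12 calls, and a fit of the 2 groups alone gave 0. All 70 genes kept their direction in every fit in which they had a value. This is no separate evidence, since some fits leave the difference unchanged by construction and the others reuse most of the same arrays. Only Rgs11 and Ccl22 were called in each of the 7 fits that left out 1 array. Pgk1 was called in 6 of the 7 and missed the threshold without 8 h replicate 3, at an adjusted p of 0.0501. Every other call named below was lost without 8 h replicate 3 or, where a gene had 1 other value at 8 h, could not be tested there.

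The largest chemokine change was in Ccl22, which encodes a ligand of CCR4, a chemokine receptor of T cells. Its levels were 1.19, 1.31 and 1.24 on the 3 arrays that measured it at 4 h, and 3.36, 3.32 and 3.05 on the 3 arrays at 8 h. The 8 h arrays were all higher by a wide margin and the groups were tight. Ccl22 rose by 2.00 ± 0.28 (SE) on the log2 scale, or 3.99-fold (limma, adjusted p = 0.00153). Ccr4, the gene of its receptor, lay at 0.43, 1.00, 0.69 and 0.83 at 4 h and at 1.50, 1.55 and 1.67 at 8 h. The groups did not overlap, and Ccr4 rose by 0.83 ± 0.20 (SE), 1.78-fold (adjusted p = 0.0440). These were the only calls among 38 tested chemokines and chemokine receptors, whose median difference was 0.10 against 0.02 for all genes. That median was 0.21 without 4 h replicate 1 or 8 h replicate 1 and -0.0020 without 4 h replicate 2. Cxcl12, which retains cells in lymphoid tissue, had a difference of 0.71, and Cxcr4, the gene of its receptor, had a difference of -0.92, and neither passed the test.

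**Figure D1:**
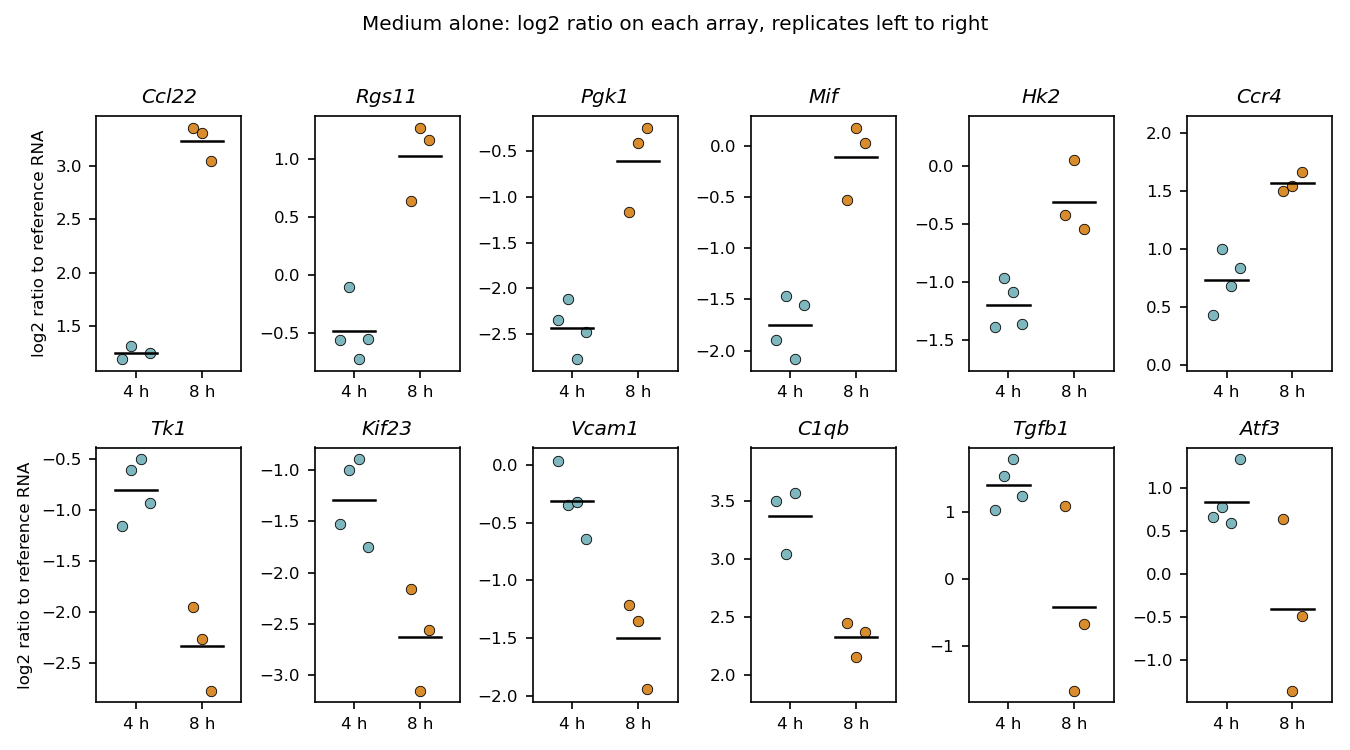
Log2 ratio to the reference RNA (vertical axis, own scale per gene) of 12 called genes on each medium array, with the 4 h arrays in blue-green on the left, the 8 h arrays in orange on the right, replicates in order from left to right, and the group mean as a line. Ccl22 was not measured on 4 h replicate 3 nor C1qb on 4 h replicate 4. In Tgfb1 and Atf3 the point of 8 h replicate 1 lies within the range of the 4 h points, and in the other 10 genes the groups do not overlap.

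Enzymes of glycolysis were among the rises. Pgk1, which encodes phosphoglycerate kinase, the first ATP-forming step of glycolysis, lay at -2.35, -2.12, -2.77 and -2.47 at 4 h and at -1.16, -0.42 and -0.24 at 8 h. All 8 h arrays were higher, replicate 1 least so, and Pgk1 rose by 1.82 ± 0.29 (SE), 3.53-fold (limma, adjusted p = 0.00186). Hk2, the hexokinase that traps glucose in the cell, lay at -1.39, -0.96, -1.09 and -1.36 at 4 h and at -0.42, 0.05 and -0.55 at 8 h. The groups did not overlap, and Hk2 rose by 0.89 ± 0.20 (SE), 1.86-fold (adjusted p = 0.0295).

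Of 29 tested genes of hypoxia and glycolysis, these 2 rose and 0 fell, and 19 of the 29 differences were above 0, with a median of 0.25 against 0.02 for all genes. Another 7 reached an unadjusted p below 0.05, all higher at 8 h, without passing the adjusted test. They were Pkm (0.85, pyruvate kinase), Egln1 (0.84, an oxygen-sensing prolyl hydroxylase), Higd1a (1.04), Pfkfb3 (0.87), Aldoa (1.00, aldolase), Tpi1 (1.21, triosephosphate isomerase) and Slc2a1 (0.63, a glucose transporter). Not every target of hypoxia-inducible factor followed this course. Car9, a carbonic anhydrase widely used as a marker of hypoxia, had a difference of -0.76 and the growth factor gene Vegfa one of -0.52, and neither passed the test. The mean level of 27 of the list's genes was -1.27, -1.26, -1.0 and -1.12 at 4 h and -0.80, -0.76 and -0.80 at 8 h, so that every 8 h array lay above every 4 h array. Without 8 h replicate 1 there were 5 calls in the list and the median was 0.35, without 8 h replicate 2 there was 1, and without 8 h replicate 3 there were 0. Without 4 h replicate 1, 3 or 4 there was also 1.

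The stretches before the transcription starts of Pgk1 and Hk2 are shown because both genes rose and both are known targets of hypoxia-inducible factor. They are the 250 bases before the RefSeq start in GRCm38.p6, Pgk1 at chrX:106186850-106187099 on the plus strand and Hk2 at chr6:82774455-82774704 on the minus strand, written 5′ to 3′ on the gene's strand. Capitals mark ACGTG or GCGTG, the core of the hypoxia response element, searched on both strands (where the match is on the other strand it reads CACGT or CACGC).
Pgk1: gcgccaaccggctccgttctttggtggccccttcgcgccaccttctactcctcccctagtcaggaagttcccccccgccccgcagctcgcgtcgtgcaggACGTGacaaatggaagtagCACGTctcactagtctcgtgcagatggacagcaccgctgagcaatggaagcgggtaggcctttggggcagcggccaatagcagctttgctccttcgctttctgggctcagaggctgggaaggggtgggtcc
Hk2: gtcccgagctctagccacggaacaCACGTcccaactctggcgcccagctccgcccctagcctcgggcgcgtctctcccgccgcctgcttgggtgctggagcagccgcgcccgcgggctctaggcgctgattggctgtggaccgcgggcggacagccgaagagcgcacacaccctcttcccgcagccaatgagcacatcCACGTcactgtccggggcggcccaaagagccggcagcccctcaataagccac
The matches of Pgk1 begin 150 and 131 bases before the start, and those of Hk2 begin 226 and 52 bases before it. Of 26 tested genes of the list with a promoter in the table, 25 (96.2%) held at least 1 match, against 57.3% of 7652 tested genes and 41.5% of all 27025 genes in the table. Counted by promoter, it was 83.3% of 36 for the list and 51.5% of 9797 for the tested genes. Only 2 genes of the list were called, so the share describes the list and not the genes that changed. The same letters occur within the E-box CACGTG, and a match describes the sequence and not the binding of a factor.

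Mif, Eno2, Rgs11 and Socs2 also rose. Mif, the macrophage migration inhibitory factor, a cytokine that lymphocytes hold in store, lay at -1.90, -1.47, -2.08 and -1.56 at 4 h and at -0.53, 0.18 and 0.03 at 8 h. The groups were clearly apart, and Mif rose by 1.64 ± 0.30 (SE), 3.12-fold (limma, adjusted p = 0.0139). Eno2, a glycolytic enolase, moved from between -1.56 and -1.41 to between -0.88 and -0.30, a rise of 0.92 ± 0.21 (adjusted p = 0.0319). Rgs11, a regulator that shortens G-protein signals, had the smallest p of all genes. Its levels were -0.56, -0.10, -0.72 and -0.55 at 4 h and 0.65, 1.27 and 1.17 at 8 h, a rise of 1.51 ± 0.21 (SE), 2.85-fold (adjusted p = 0.000775). Socs2, a feedback suppressor of cytokine receptors, lay at -1.48, -1.35, -1.67 and -1.57 and then at -0.05, -0.40 and -0.63. It rose by 1.16 ± 0.24 (SE), 2.23-fold (adjusted p = 0.0195), and was the 1 call among 38 genes of cytokine signalling.

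Ido1, which encodes a tryptophan-degrading enzyme, rose by 1.09 ± 0.22 (SE, adjusted p = 0.0195), and Dpp4, the T cell surface peptidase CD26, by 0.83 ± 0.19 (adjusted p = 0.0381). Cdh5, the cadherin of endothelial junctions, lay at 1.08, 0.97, 0.51 and 0.57 at 4 h and at 1.68, 1.87 and 3.16 at 8 h. It rose by 1.46 ± 0.34 (SE, adjusted p = 0.0399), and 8 h replicate 3 was far above the other arrays. The largest rise of all was in Atp2b2, a plasma membrane calcium pump best known from neurons and hair cells. Its levels were -0.35, 1.06, -0.01 and -0.02 at 4 h and 2.74, 2.15 and 4.33 at 8 h, a rise of 2.90 ± 0.59 (SE), 7.48-fold (limma, adjusted p = 0.0195). The arrays within each time spread widely for this gene, but they did not overlap between times. Other called rises were also in genes best known from other tissues, among them Smr3a of salivary gland (1.11), Map2 (1.11) and Jph3 (1.08) of neurons, Scg5 of neuroendocrine cells (1.18) and Hsd3b1 of steroid synthesis (0.96). These 5 were grouped after their values were seen. A second probe of Smr3a had a smaller difference, 0.30 ± 0.18 (SE; limma, unadjusted p = 0.11). For the 15 tested markers of other tissues in the reference, the median difference was 0.01 and 0 were called, with 1 at an unadjusted p below 0.05.

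The falls included genes of cell division. Tk1, the thymidine kinase made in S phase, lay at -1.16, -0.61, -0.51 and -0.94 at 4 h and at -1.95, -2.26 and -2.77 at 8 h. It fell by 1.53 on the log2 scale (SE 0.29), to 0.347 of the 4 h level (limma, adjusted p = 0.0167). Kif23, a kinesin of the midzone in cell division, lay at -1.52, -1.0, -0.89 and -1.75 and then at -2.17, -3.16 and -2.56, a difference of -1.34 ± 0.29 (adjusted p = 0.0281). Mcm5, a subunit of the replicative helicase, lay at -1.30, -0.98, -0.95 and -0.93 and then at -1.74, -1.68 and -2.06, a difference of -0.78 ± 0.19 (adjusted p = 0.0440). In none of the 3 genes did the groups overlap, and all 7 levels were below the reference. Ncaph, a condensin subunit (-1.29 ± 0.28), and Lig1, the ligase that joins replication fragments (-0.93 ± 0.22), fell too and were not on the list.

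Of 51 tested genes of the cell cycle and DNA replication, these 3 fell and 0 rose, and 35 differences were below 0. The median was -0.29, and -0.22 after quantile normalization. At an unadjusted p below 0.05 there were 19 lower and 0 higher, among them Stmn1 (-1.33), Rrm1 (-0.88), the subunit of ribonucleotide reductase, and the mitotic kinase Aurkb (-1.14), which did not pass the adjusted test. The mean level of 48 of these genes was -0.96, -0.76, -0.70 and -0.97 at 4 h and -1.21, -1.09 and -1.33 at 8 h, without overlap. The highest were 4 h replicates 2 and 3, which were also highest in the neutrophil and erythroid markers given below. Without 8 h replicate 1 the list had 11 lower calls, and without 8 h replicate 2 or 3 or 4 h replicate 3 it had 0. Without 4 h replicate 2 there was 1, and without 4 h replicate 4 there were 2. In whole cell suspensions, fewer cells of a type and less RNA per cell cannot be told apart.

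Immediate early genes were lower at 8 h in 28 of 32 cases, with a median difference of -0.32. Jund, a member of the AP-1 family, lay at 0.77, 0.93, 1.68 and 0.93 at 4 h and at 0.25, -0.16 and 0.23 at 8 h. The groups did not overlap, and Jund fell by 0.97 (SE 0.22; limma, adjusted p = 0.0369). Atf3, a stress-induced transcription factor, lay at 0.66, 0.78, 0.59 and 1.34 at 4 h and at 0.64, -1.36 and -0.49 at 8 h. It fell by 1.24 (SE 0.30, adjusted p = 0.0420), although 8 h replicate 1 lay within the 4 h values, and without that array the difference was -1.77. It was -0.77 (adjusted p = 0.336) without 8 h replicate 2. These were the 2 calls of the list, with 10 genes lower and 0 higher at an unadjusted p below 0.05, and without 8 h replicate 1 there were 7 lower calls. Without 8 h replicate 2 or 3, or 4 h replicate 2, 3 or 4, there were 0. Fos, the partner of Jun proteins in AP-1, had a difference of -0.94, Egr1, an early zinc-finger factor, one of -0.86, and Dusp2, a phosphatase that switches off MAP kinases, one of -1.77, and none of them passed. Dusp2 shows how the 8 h arrays differed, at 2.70, -0.90 and 1.00 after 2.25, 3.31, 2.94 and 2.31 at 4 h.

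The promoter of Atf3 is shown because cyclic AMP response elements are known control sites of this gene family. It covers the 250 bases before the RefSeq start in GRCm38.p6, at chr1:191183334-191183583 on the minus strand, with capitals for TGACG, the half-site of the element, searched on both strands (CGTCA where it lies on the other).
Atf3: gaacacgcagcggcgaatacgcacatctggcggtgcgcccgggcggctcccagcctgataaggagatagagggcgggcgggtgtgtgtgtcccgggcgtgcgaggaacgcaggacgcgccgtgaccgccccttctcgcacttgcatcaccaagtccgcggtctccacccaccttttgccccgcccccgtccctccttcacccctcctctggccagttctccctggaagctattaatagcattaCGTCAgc
Its 1 match begins 7 bases before the start. Of 24 tested immediate early genes with a promoter in the table, 15 (62.5%) held the half-site, against 28% of the 7652 tested genes. This share too describes the list, of which 2 genes were called. The same window of Jund, the other called member, held no match. The whole element TGACGTCA, which contains the half-site, was in 4 of the 24 (16.7%) and in 2.65% of the tested genes. Binding sites of NF-kB, searched in the same windows by their consensus, were in 6 of 28 chemokine and receptor genes (21.4%) and in 10.1% of the tested genes, with no match for Ccl22 or Ccr4.

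**Figure D2:**
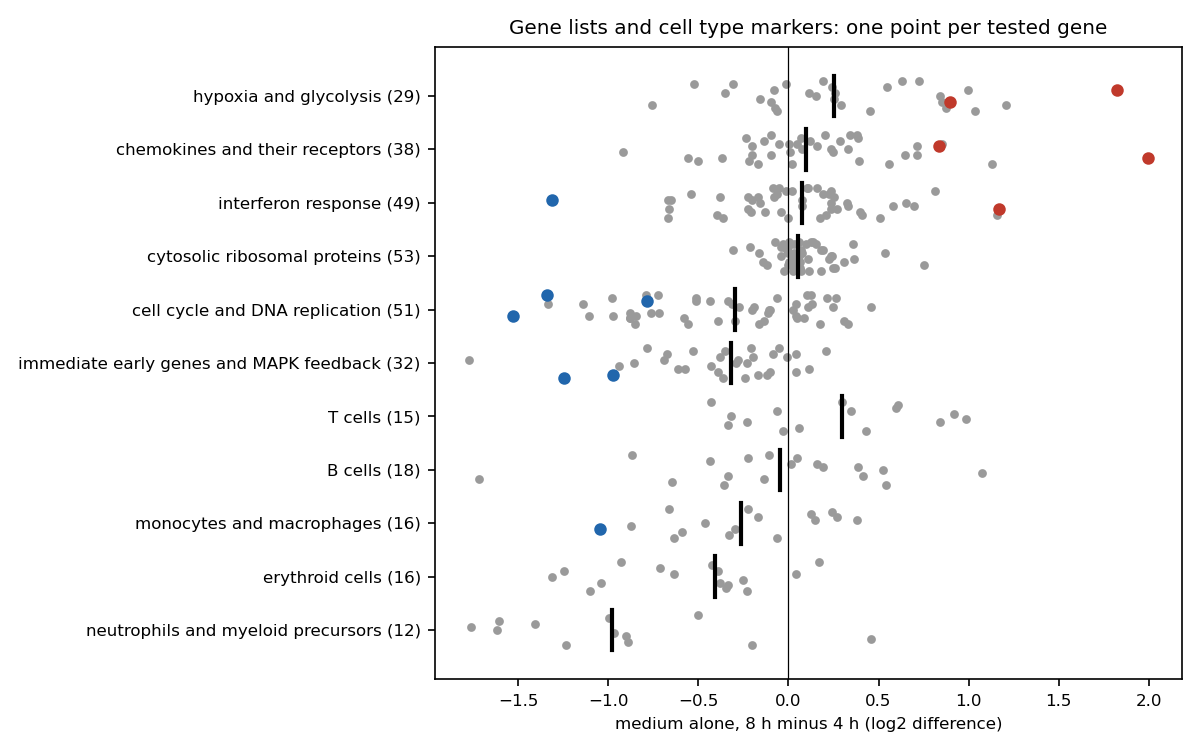
Log2 difference between 8 h and 4 h in medium (horizontal axis) for each tested gene of 11 lists, with the number of tested genes in brackets. Red points are called higher, blue points called lower, grey points not called, and the bar is the list's median. Hypoxia and glycolysis genes lie mostly above 0 (median 0.25), while cell cycle (-0.29), immediate early (-0.32) and neutrophil genes (-0.98) lie mostly below it.

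Genes of adhesion, the cytoskeleton and cell surfaces were among the falls. Vcam1, the adhesion molecule by which stromal cells and macrophages hold lymphocytes, lay at 0.03, -0.35, -0.32 and -0.64 at 4 h and at -1.21, -1.35 and -1.94 at 8 h. The groups did not overlap, and Vcam1 fell by 1.18 (SE 0.23; limma, adjusted p = 0.0167). Its level also differed from 2 h to 4 h, by -1.40 ± 0.21 (SE, adjusted p = 0.000411), a comparison that shares the 4 h arrays and in which 1.58% of genes were called. Flna, the actin cross-linker filamin A, lay at 0.08, -0.41, -0.16 and -0.80 and then at -0.92, -2.62 and -1.81, a difference of -1.46 ± 0.28 (adjusted p = 0.0167). Cd44, the hyaluronan receptor, lay at 0.15, 0.33, 0.20 and -0.32 and then at -0.49, -1.45 and -1.14, a difference of -1.12 ± 0.22 (adjusted p = 0.0195). Elmo1, an adaptor for cell migration and engulfment, lay at 1.94, 1.75, 2.04 and 1.44 and then at 1.18, -0.93 and 0.49, a difference of -1.55 ± 0.32 (adjusted p = 0.0195), which was -0.96 (adjusted p = 0.173) without 8 h replicate 2. In all 4 genes the groups did not overlap, and in Flna, Cd44 and Elmo1 8 h replicate 2 was lowest and 8 h replicate 1 nearest to the 4 h arrays. Of 43 tested genes of actin, tubulin and adhesion 2 fell and 0 rose, with a median difference of -0.07. Without 8 h replicate 1 there were 6 lower calls, and without 8 h replicate 2 or 3 or 4 h replicate 3 there were 0.

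Tgfb1, the regulatory cytokine TGF-beta 1, had the largest fall of all genes measured on every array. It lay at 1.04, 1.55, 1.80 and 1.24 at 4 h and at 1.10, -1.68 and -0.67 at 8 h. The groups overlapped, since 8 h replicate 1 lay above the lowest 4 h array, and the difference was -1.83 ± 0.44 (SE; limma, adjusted p = 0.0440). This became -1.20 (adjusted p = 0.336) without 8 h replicate 2 and -2.59 without 8 h replicate 1. Tgfbi, a matrix protein gene induced by TGF-beta, fell by 1.08 (SE 0.25, adjusted p = 0.0407) and was measured on 2 of the 3 arrays at 8 h. Of 34 tested cytokines, Mif rose and Tgfb1 fell, and the median difference was 0.02. Nfatc1, a calcium-dependent transcription factor of activated lymphocytes, lay at 2.55, 3.15, 3.10 and 2.60 and then at 2.28, 1.25 and 1.86, a difference of -1.05 ± 0.25 (adjusted p = 0.0440). A second probe of Nfatc1 had the opposite difference, 0.81 ± 0.26 (unadjusted p = 0.00457), so the direction of this gene depends on the probe. Nfatc1 and Cd44 were the 2 calls among 34 genes of lymphocyte activation.

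C1qb, a chain of complement C1q made by macrophages, was the only called marker of monocytes and macrophages among 16. It lay at 3.50, 3.04 and 3.57 on the 3 arrays that measured it at 4 h and at 2.45, 2.15 and 2.37 at 8 h. The groups did not overlap, and C1qb fell by 1.05 (SE 0.24; limma, adjusted p = 0.0399), after a difference of -2.16 ± 0.24 (SE) from 2 h to 4 h (adjusted p = 1.32e-05). C1qc, a partner chain, had a difference of -0.67 and C1qa, the other, one of 0.27, and neither passed. The median over the 16 markers was -0.26, and 11 of them were below 0. It was -0.51 without 8 h replicate 1, -0.17 without 8 h replicate 2 and -0.16 without 8 h replicate 3.

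Markers of neutrophils and their precursors, and of erythroid cells, differed more than those of other cell types without any call. The median difference of 12 neutrophil and precursor markers was -0.98, with 11 below 0, 4 lower at an unadjusted p below 0.05 and 0 called. With 1 array left out, this median ranged from -1.49 (without 8 h replicate 1) to -0.76 (without 4 h replicate 3). S100a8, an abundant calcium-binding protein gene of neutrophils, lay at 4.81, 5.68, 5.81 and 4.69 at 4 h and at 4.08, 4.75 and 4.01 at 8 h, a difference of -0.97 ± 0.32 (limma, adjusted p = 0.142). Elane, the neutrophil elastase gene of precursors, lay at 0.80, 3.58, 3.37 and 0.83 at 4 h and at 0.74, 0.31 and 0.08 at 8 h. Here 4 h replicates 2 and 3 were high, and the other 4 h arrays were close to the 8 h arrays. The difference was -1.76 ± 0.89 (SE, adjusted p = 0.379). The same split ran through 8 of these markers, with mean levels of 2.19, 4.03, 4.19 and 2.40 at 4 h and 2.13, 1.87 and 1.72 at 8 h. For 16 erythroid markers the median was -0.41, with 14 below 0 and 5 lower at an unadjusted p below 0.05. Among them were Bpgm (-1.25), which makes the red cell metabolite that lowers oxygen affinity, Gata1 (-1.31), the master transcription factor of the lineage, and Rhd (-1.10), a blood group protein. The mean level of 11 erythroid markers was 2.31, 3.10, 2.95 and 2.35 at 4 h and 2.21, 1.97 and 2.04 at 8 h. Alad, a heme synthesis enzyme, and Gypc, a red cell membrane protein, were called lower, at -1.26 ± 0.28 and -0.86 ± 0.20. The part of these markers in the lower levels of cell cycle genes, which dividing precursors also express, was not tested.

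**Figure D3:**
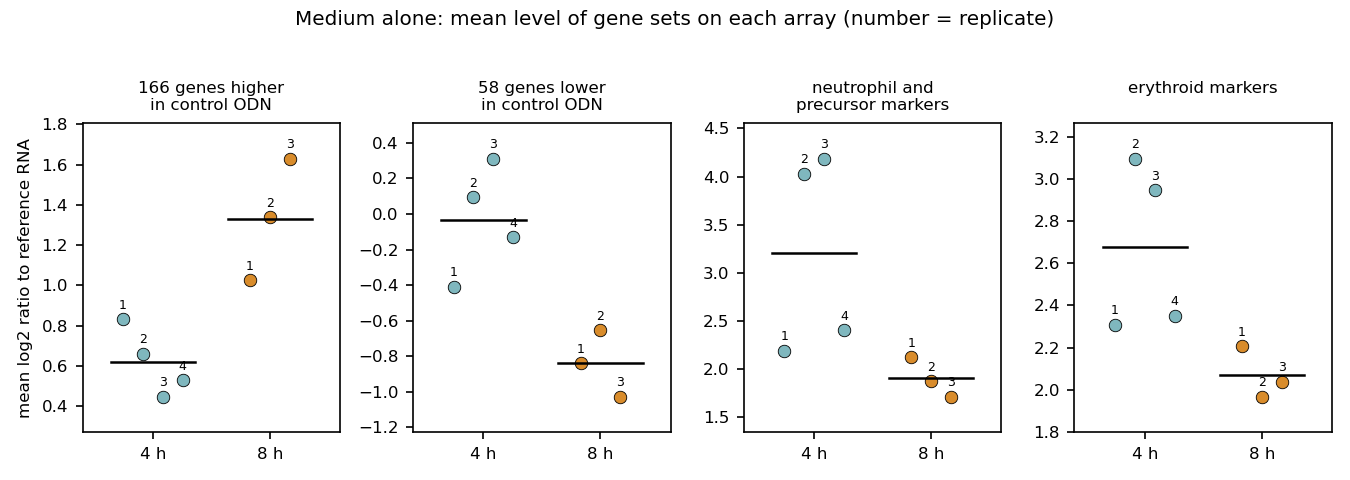
Mean log2 ratio to the reference RNA (vertical axis, own scale per panel) of 4 gene sets on each medium array, numbered by replicate, with the group mean as a line. In all 4 panels the 3 arrays at 8 h lie on one side of the 4 arrays at 4 h, and in the 2 marker panels 4 h replicates 2 and 3 lie far above the rest. The same 2 arrays are also highest in the panel of genes lower in control ODN.

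For lymphocytes the differences were smaller. The 15 T cell markers had a median of 0.30, which was 0.02 without 8 h replicate 3, and Cd8a (0.60) and Cd8b1 (0.98), the chains of the CD8 co-receptor, were higher at an unadjusted p below 0.05 without being called. The 18 B cell markers had a median of -0.05 with 9 above 0 and 9 below, and a median of 0.11 without 8 h replicate 1. Cd79a, a chain of the B cell receptor, was at 1.42 on 8 h replicate 2 against 5.24 to 5.91 on the other 5 arrays that measured it. The 49 genes of the interferon response had a median of 0.08, with 1 rise and 1 fall. Trim30a, an interferon-induced regulator, rose by 1.17 ± 0.25 (SE; limma, adjusted p = 0.0216), and Ifitm2, an antiviral membrane protein gene, fell by 1.31 (SE 0.29, adjusted p = 0.0295). Without 8 h replicate 1 the list had 3 rises and 2 falls, without 4 h replicate 4 it had 1 fall alone, and without 8 h replicate 2 or 3 or 4 h replicate 2 or 3 it had 0 of either. No gene was called in the lists of heat shock (24 genes tested), the unfolded protein response (26), oxidative stress (25), glucocorticoid-induced genes (19), p53 targets (19), apoptosis (46), ribosome biogenesis (48), ribosomal proteins (53), oxidative phosphorylation (50), proteasome (30), lysosome (38), sterol synthesis (30), MHC class II (22) or clock genes (14). At an unadjusted p below 0.05 these held between 0 and 10 genes each.

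The interval from 4 h to 8 h was also sampled in cells given control ODN, on arrays that none of the medium values used. In those arrays 242 of 9575 genes were called (2.53%), 177 higher and 65 lower. Of the 69 genes called in medium and tested there, 69 had the same direction, and 36 were also called, 28 of 37 higher and 8 of 32 lower. These 36 are 52.2% of the 69 and 14.9% of the 242. Over all 9493 genes tested in both, 68.2% had the same direction. Ccl22 rose by 2.35, Pgk1 by 2.19, Mif by 1.71, Rgs11 by 1.36 and Socs2 by 1.35 in control ODN, and Tk1 differed by -1.17, Vcam1 by -0.82 and Mgst3, a glutathione transferase relative, by -1.56, all called. Flna at -0.19 and Cd44 at -0.10 were not, nor was Osbpl6 at 0.02, against 1.10 in medium. The difference between the 2 changes was tested for each gene, and 0 of 9493 (0%) were called in limma. At an unadjusted p below 0.05 there were 287 (3.02%), fewer than the share of about 0.05 that would pass with no difference. The reason for this low share was not tested. It is not given whether medium and ODN cultures of 1 experiment shared a suspension, which would give them deviations in common. Database numbers followed the same order in both, apart from 4 h medium replicate 1, so time and that order cannot be told apart.

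**Figure D4:**
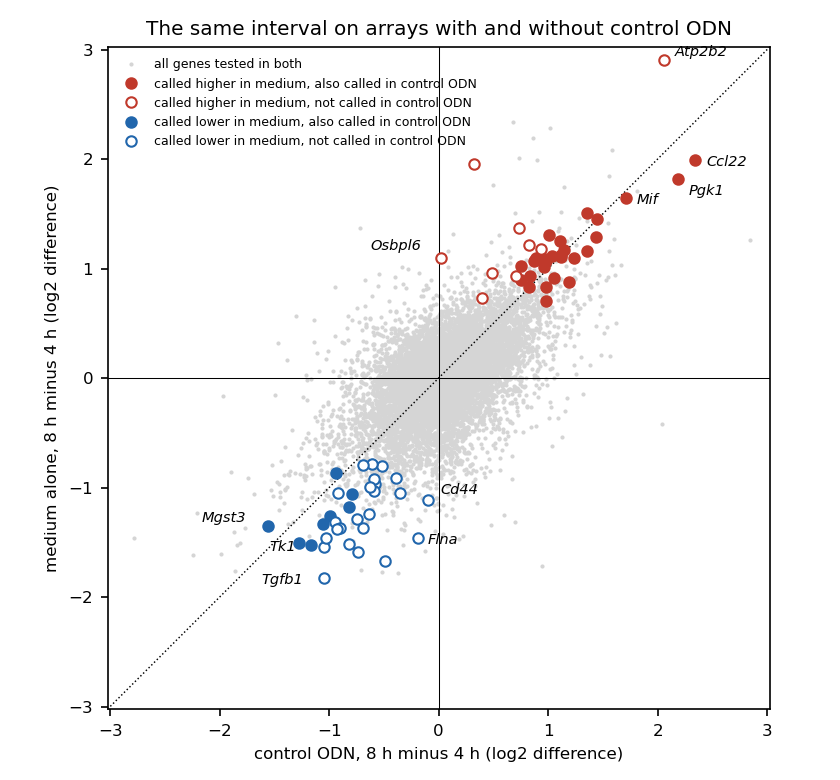
Log2 difference between 8 h and 4 h in control ODN (horizontal axis) and in medium (vertical axis) for all genes tested in both (grey) and the 69 genes called in medium (red higher, blue lower; filled where also called in control ODN). All 69 lie in the quadrants of equal sign, Flna, Cd44 and Osbpl6 near the vertical axis, and the dotted line marks equal differences.

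The control ODN differences that chose the next genes use no level of the medium arrays, although the fit shares 1 estimate of the spread over all groups. Among genes called there with all 7 medium values, 166 higher in control ODN had mean levels of 0.83, 0.66, 0.45 and 0.53 at 4 h in medium and 1.03, 1.34 and 1.63 at 8 h. The 58 lower in control ODN had -0.41, 0.09, 0.31 and -0.13 at 4 h and -0.84, -0.65 and -1.03 at 8 h. Neither set overlapped between times, and 8 h replicate 1, though nearest to the 4 h arrays in the rises, lay with the 8 h arrays in both. The differences were 0.71 and -0.81, each with an exact two-sided permutation p of 0.0571 over 35 arrangements. That is the smallest p this form of the test can give for 3 arrays against 4. With genes called in a fit of the 7 control ODN arrays alone, an alternative chosen after seeing the data, the differences in medium were 0.88 for 32 higher and -0.96 for 16 lower genes. Their groups did not overlap either, and the exact two-sided permutation p was again 0.0571 for each. It comes from the same 7 medium arrays and is not a further independent test.

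With CpG ODN, which activates B cells and dendritic cells through Toll-like receptor 9, 784 of 9543 genes were called between 4 h and 8 h (8.22%). Of 69 medium calls tested there, 61 had the same direction, 20 were called in it, and Atf3 was called in the opposite one, at 1.22 against -1.24 in medium. The share of all genes with the same direction was not counted for CpG ODN. The changes themselves differed in 226 of 9460 genes (2.39%), of which 6 were among the 70. Pgk1 rose by 1.46 with CpG ODN, Hk2 by 1.41 and Mif by 1.17, and Tk1 differed by -1.69 and Vcam1 by -1.65, each with the sign it had in medium. The interferon genes had a median of 1.74 with CpG ODN and 0.08 in medium, and the medium change was below that of CpG ODN at an adjusted p under 0.05 in 29 of the genes. Over the whole culture, from 2 h to 8 h, 1379 of 9475 genes were called in medium (14.6%), a comparison that shares the 8 h arrays. The levels of Pgk1 differed by 2.59 over those hours, by 0.77 up to 4 h and by 1.82 after it, and those of C1qb by -3.21, of which -2.16 up to 4 h.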

How the data were processed

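Arrays of 2 colours measured RNA of cultured spleen cells against a reference RNA. The authors deposited a table of log ratios, read here as log2 ratios of Cy5 to Cy3. The treatment of background, weak spots and dye balance, and the log base, were not given in the sources used here. Base 2 was read from the range of the values, -6.51 to 8.54. Direction follows from the dyes per the labels. Of 16720 probes, 11303 were measured. The platform annotation, which can be old, gave 1 symbol to 14656 probes, several to 6 and none to 2058 (1047 measured), and those of the last kinds were not tested. Entrez identifiers of 14361 probes were found in RefSeq, which changed 0 symbols. For 511 genes with several probes, the probe with the fewest missing values was used, which gave 9672 genes.

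Each array was centred on its median. With limma 3.58.1 in R 4.3.3, 1 mean per group was fitted over all 9 groups (33 arrays), which share 1 estimate of the spread (prior degrees of freedom 5.75, median residual SD 0.350). Variances were moderated, p-values Benjamini-Hochberg adjusted over all genes, and adjusted p below 0.05 was the threshold for a call. Each p of a gene is from this limma fit, and errors of differences are its SE. A gene needed 2 measured arrays in each group compared. The code recovered most of the changes put into simulated arrays. Those changes were larger than most of the differences called here, and the simulated noise was capped and independent between arrays. Recovery of smaller changes was not checked. The p-values and SE rest on a spread pooled over the replicates of all 9 groups. The study describes the replicates as independent experiments. This is not the spread of the compared groups alone, so an SE can be small beside the scatter of a gene's own values. For Tgfb1 the SD was 1.41 between the 8 h arrays and 0.34 between the 4 h arrays, and the SE of the difference was 0.44.

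The arrays and gene lists were chosen with earlier results of these data known. A rule picked 61 named genes. They were the 12 largest called rises and 12 largest called falls measured on all 7 arrays, up to 3 called members per list (the member of smallest p where none was called) and up to 2 called markers per cell type. Not all of these are described above. Left out were Gpha2, 4930442E04Rik, Plekha3, Atf7ip, Rnf10, Tspan33 and Armh4 of the largest falls. Cby2, Speer4cos, Mrpl40 and Plekhh3 of the largest rises were left out too, as were some list members that were not called. Others were named after their values were seen. Promoters come from a RefSeq table of GRCm38.p6. They were searched for motifs of the hypoxia and glycolysis, immediate early and chemokine lists. Other lists with called members, such as the cell cycle list, were not searched. It is not given whether replicate numbers mark a shared suspension. Deviations of same-numbered 8 h and 4 h medium arrays correlated at -0.385, -0.347 and 6.33e-05 over 7741 genes, so the numbers were not taken as pairs. The alternatives changed the arrays, the samples in the fit, the scaling, the gene filter, the weights, the choice of probe and the replicate block. The number of arrays limits the precision.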

Additional observations from a re-analysis of the deposited data

Results flagged for a closer look

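Among 59 named genes with a value on all 4 arrays at 4 h, 2 had 1 array far from the other 3, and chance alone marks about 1 gene in 20 by this measure. Scg5, a neuroendocrine secretory protein gene, was at 1.33 on 4 h replicate 2 against 0.58 to 0.67 on the other 4 h arrays. Mcm5, the helicase subunit, was at -1.305 on 4 h replicate 1 against -0.98 to -0.93 on the others. Of the 61 named genes, 4 changed differently in medium and in cells given CpG ODN, each by the test of the difference itself in limma. The change from 4 h to 8 h in medium was lower than with CpG ODN by -1.77 on the log2 scale for Trim30a (adjusted p = 0.00247) and by -2.46 for Atf3 (adjusted p = 0.000557). It was lower by -1.24 for Tkt, the transketolase of the pentose phosphate pathway (adjusted p = 0.0217), and by -2.36 for Atic, an enzyme of purine synthesis (adjusted p = 0.00346). Tkt and Atic were not called in medium alone, at differences of -0.76 and -1.22.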

How the results depend on the processing

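The count of 70 calls, 37 higher and 33 lower, moved with the processing. It was 0 with only the 2 groups in the fit, 1 (1 higher, 0 lower) with the 11 medium arrays, 38 (21 and 17) after quantile normalization and 791 (509 and 282) with array weights, which were 0.375, 0.284 and 2.06 for the 8 h arrays. Leaving out 1 array gave 2 to 563 calls, 2 to 254 higher and 0 to 309 lower. With a replicate block shared by all groups there were 173 calls (77 and 96), and with a replicate block in the 7 arrays there were 0 (0 and 0). In control ODN, 242 calls became 53 (35 and 18) with its 7 arrays alone, 50 (29 and 21) after quantile normalization, and 127 lower calls in place of 65 with the replicate block. The test of medium against control ODN changes gave 0 calls in each of the 3 fits tried. No centring, stricter filters, a variance trend, the mean of all probes, all probes and omission of the arrays of early database number kept the count between 59 and 77. All 70 genes kept their sign in each fit that gave a value, which is no separate evidence, as these fits reuse the same arrays. Of the 70, 32 were still called after quantile normalization and 70 with array weights. The causes of these shifts were not tested. The number of arrays limits the precision.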

Other observations

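Cts3, a cathepsin gene best known from placenta, was measured on all 4 arrays at 4 h, at -0.64 to -0.12, and on none of the 3 at 8 h, and it was the only gene with that pattern while 0 genes had the reverse. It was measured on 3 arrays of control ODN at 8 h and on 3 at 4 h. The spread between replicates was larger at 8 h, with a median SD over 7741 genes of 0.367 against 0.278 at 4 h.

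Of 5 called genes with another measured probe, 3 had a second probe of opposite sign. In Eif2ak1, the heme-regulated kinase that slows translation, the probes differed by -1.52 ± 0.37 and 0.08 ± 0.30 (SE), and in Katnal2, a microtubule-severing protein gene, by 1.07 ± 0.26 and -0.08 ± 0.24. The third was Nfatc1.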
